A study of Mus musculus with 9 samples.

Results

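The mRNAs of 10 transcription factors that hold mouse embryonic stem (ES) cells in the pluripotent state were followed across ES cells that lack Dgcr8, ES cells that lack Dicer, and wild-type ES cells. The factors were the core factors Pou5f1, Sox2 and Nanog and the naive-state factors Prdm14, Klf2, Klf4, Klf5, Tbx3, Esrrb and Tfcp2l1, and each was found by its gene symbol in the array annotation. Each symbol named 1 transcript cluster, a set of probes spread over the exons of 1 gene, so that 10 of the 22999 annotated transcripts counted here, and of 35557 clusters on the array, were the factors.

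In ES cells, Pou5f1 (also called Oct4) and Sox2 bind neighbouring sites in DNA as a pair and together with Nanog switch on a shared set of genes, their own included. The naive-state factors hold the cells close to the state of the early embryo before implantation, and they receive the extracellular signals: leukaemia inhibitory factor (LIF) acts through Stat3 on Klf4 and Tfcp2l1, the Wnt pathway relieves repression of Esrrb, Klf2 and Tfcp2l1 by Tcf7l1, and FGF signalling through ERK favours exit from the naive state. MicroRNAs are short RNAs that lower the level and the translation of mRNAs. Dgcr8 is the RNA-binding partner of the nuclease Drosha in the Microprocessor, which cuts hairpins out of the primary transcripts of microRNAs, and Dicer cuts those hairpins to the mature microRNA.

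Total RNA was measured on 3 Affymetrix mouse Gene ST arrays each from Dgcr8 KO, Dicer KO and wild-type (WT) ES cells, and no treatment is named for any of them. The wild-type line was v6.5. For the knockout lines the sources used here gave the deleted gene, and for Dgcr8 a deletion of exon 3. They gave neither the parental line nor the number of clones. A deletion and the line that carries it therefore cannot be told apart. The cells were plated in triplicate and the study calls the arrays biological replicates, so the p-values may measure only the spread between cultures of 1 line. Each deleted gene was lowest in the cells named for its loss. Dgcr8 was at log2 levels of 8.74, 8.96 and 8.86 in Dgcr8 KO cells, 9.98, 9.99 and 9.99 in Dicer KO cells and 9.76, 9.81 and 9.82 in WT cells. Dicer1 was at 10.40, 10.47 and 10.39 in Dgcr8 KO cells, 8.33, 8.43 and 8.32 in Dicer KO cells and 10.18, 10.18 and 10.23 in WT cells.

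Values are log2 levels normalised across arrays, so a difference of 1 is a 2-fold difference. They are compared between genotypes for 1 gene at a time, since probes of different genes do not share a scale. Array medians were 6.49 to 6.56, and Pearson's r across transcripts, which are not independent replicates, was 0.996 to 0.998 within a genotype and 0.978 to 0.991 between genotypes. WT replicate 1 and Dgcr8 KO replicate 2 deviated most from the other arrays of their genotypes, and in opposite directions along the main axis of that deviation. WT replicate 1 was also the lowest WT array for 8 of the 10 factors, and of the calls of the factors, that of Pou5f1 in Dgcr8 KO cells was lost without it, as given with its values. In every genotype 9 of 9 clusters of ES cell markers had a mean above the array median. In bulk RNA of this kind, fewer cells that express a gene and less of its mRNA per cell cannot be told apart.

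Sites that these factors are known to bind were looked for in the 250 bases upstream of the RefSeq transcript starts of the factors themselves (build GRCm38.p6). Windows were held for 7 of the 10 factors, 10 windows in all, and the same search was made in all 32851 mouse windows. The sequences below hold letters that factors of the group are known to bind, upstream of genes of the same group, each printed in the direction of its gene with the matching letters in capitals. In Nanog these are, on the opposite strand, the SOX letters CATTGT joined through 1 base of any kind to the POU octamer letters ATGCAAA. In Sox2 they are the octamer letters without the SOX letters. In Pou5f1, Klf2 and Klf4 they are the GC box GGGCGGGG read by SP and KLF proteins, and in Tfcp2l1 the KLF letters GGGNGTG on the opposite strand.
Nanog: agcttctTTTGCATTACAATGtccatgg
Sox2: gccccctttcATGCAAAaccctctggcg
Pou5f1: cccacccaggGGGCGGGGccagaggtca
Klf2: ccggccgcggGGGCGGGGcttgaggagc
Klf4: gaaaggcaggGGGCGGGGcctggcggcg
Tfcp2l1: ctgcaataacCACGCCCctaatgccacg

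The Nanog stretch lies at chr6:122707407-122707434 on the plus strand, just upstream of the gene (chr6:122707489-122714633). The joined letters were present in 2 of the 32851 windows (0.00609%), and both were the overlapping windows of Nanog. The joined letters overlap both of their parts, the octamer and the SOX letters, which taken alone were in 4.12% and 10.7% of all windows and in 3 and 3 of the factors' 10 windows. Each of these counts holds 1 Nanog site in both of its overlapping windows. The remaining window was that of Sox2 for the octamer and of Pou5f1 for the SOX letters, so the counts are not of independent windows. The Sox2 stretch is at chr3:34649886-34649913 on the plus strand. The GC box of Pou5f1 (chr17:35505977-35506004, plus strand), Klf2 (chr8:72318857-72318884, plus strand) and Klf4 (chr4:55532559-55532586, minus strand) was in 4 of the factors' windows, that of Sox2 being the other, and in 16.1% of all windows. The KLF letters, as in Tfcp2l1 (chr1:118627875-118627902, plus strand), were in 5, 2 of them the overlapping windows of Nanog, and in 26.1%. The letters AAGGTCA of the receptor Esrrb, CTTTGAT of TCF proteins and TTCCNGGAA of STAT proteins, searched on both strands like the rest, were in 0 of the factors' windows, and in 4.08%, 3.21% and 0.913% of all windows. A match describes the letters in a window, and neither binding nor use of a site was measured.

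Most of the factors had more mRNA in both mutants than in WT cells. In Dgcr8 KO cells 9 of the 10 rose and 0 fell at an adjusted p under 0.05, where 15.7% of all transcripts counted rose and 17.3% fell. In Dicer KO cells 10 of the 10 rose, where 17.8% of all transcripts rose and 19.1% fell. The median log2 ratio of the factors was 0.63 in Dgcr8 KO cells and 0.85 in Dicer KO cells, against -0.01 and -0.06 over all transcripts. The 3 arrays of Dgcr8 KO cells lay above the 3 WT arrays without overlap for 9 factors (19.3% of all transcripts), and those of Dicer KO cells for 10 (21.3%). Both comparisons use the same WT arrays, so their counts are not independent of each other, and the group was taken up with earlier results of these data in view, so the counts are a description. A rise of at least 1 on the log2 scale was called for Prdm14, Klf2 and Tbx3 in Dgcr8 KO cells (2.14% of all transcripts), and for these and Nanog and Tfcp2l1 in Dicer KO cells (2.89%).

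**Figure D1:**
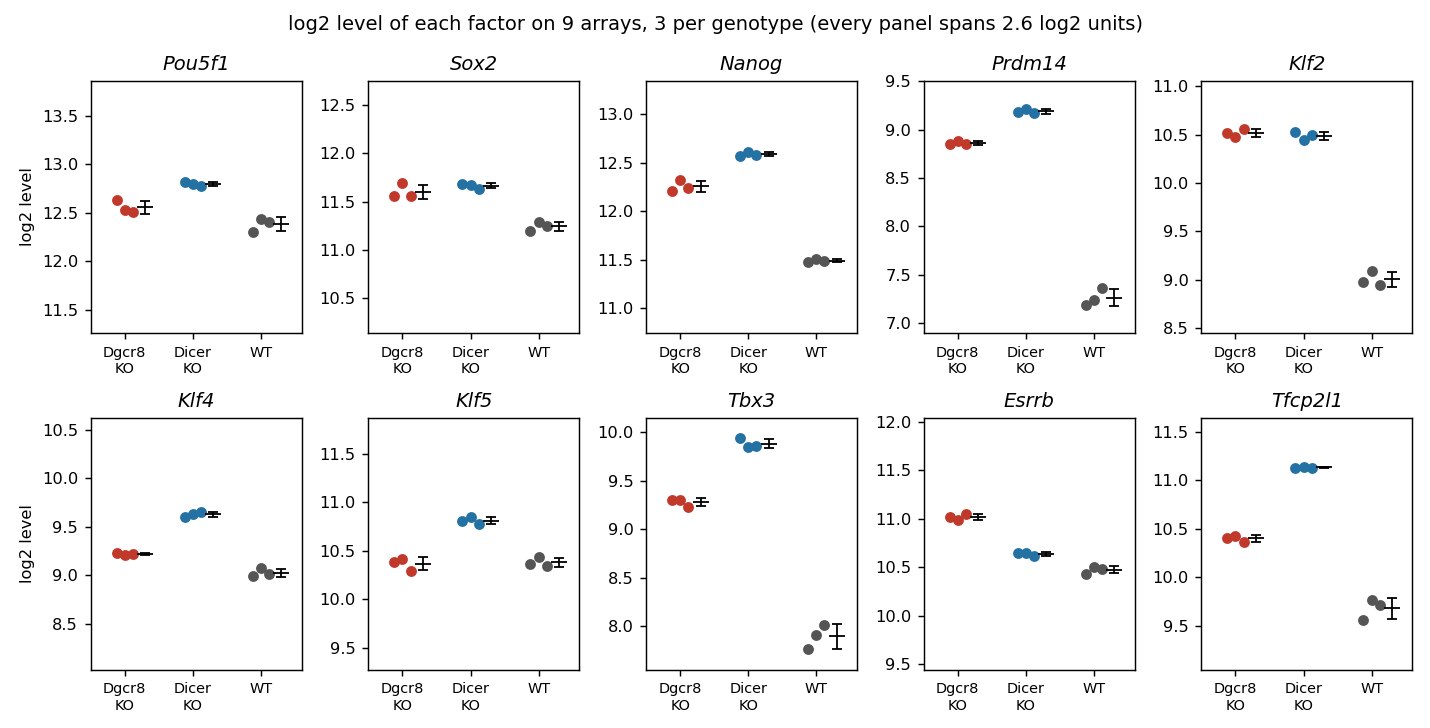
The log2 level of each factor on every array (points), by genotype, with the mean and SD of the 3 arrays beside them; the panels have different offsets and the same span. Prdm14, Klf2 and Tbx3 have the widest gaps between the Dgcr8 KO and WT arrays, and Klf5 is the only panel in which the Dgcr8 KO and WT arrays overlap.

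Of the core factors, Pou5f1 and Sox2 rose by less than 1.5-fold in either mutant, and Nanog by more. Pou5f1 (chr17:35506032-35510777), a POU-domain protein without which the inner cell mass does not become pluripotent, was at log2 levels of 12.63, 12.53 and 12.51 in Dgcr8 KO cells, 12.82, 12.80 and 12.78 in Dicer KO cells and 12.30, 12.44 and 12.41 in WT cells. The 3 genotypes did not overlap, with Dicer KO cells above and WT cells below. The log2 ratio to WT was 0.18 (SE 0.05, adjusted p = 0.0320, 1.13-fold) in Dgcr8 KO cells and 0.42 (SE 0.05, adjusted p = 0.000219, 1.33-fold) in Dicer KO cells. The call in Dgcr8 KO cells was lost without WT replicate 1 (adjusted p = 0.0732), WT replicate 3 (0.0578), Dgcr8 KO replicate 1 (0.114) or any 1 of the Dicer KO arrays (0.05005 to 0.05067). SAM, the test the study used, was rewritten here and did not make the call (q = 0.288). In this comparison it added a constant of 0.74 to the SE of each transcript, so it weighed mainly the size of a ratio. Related sequences of Pou5f1 number 5 in RefSeq, and how their RNA divides among the probes was not tested. The 1 on the array, Pou5f1-rs4, differed from WT by 0.07 on the log2 scale in Dgcr8 KO cells (adjusted p = 0.434) and by 0.20 in Dicer KO cells (adjusted p = 0.0279).

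Sox2 (chr3:34649995-34652461), the HMG-box partner of Pou5f1, was at 11.56, 11.69 and 11.55 in Dgcr8 KO cells, 11.68, 11.67 and 11.63 in Dicer KO cells and 11.20, 11.29 and 11.25 in WT cells. Both mutants were above WT without overlap, and they overlapped each other. The log2 ratio was 0.35 (SE 0.05, adjusted p = 0.000612) in Dgcr8 KO cells and 0.42 (SE 0.05, adjusted p = 0.000184) in Dicer KO cells, which are 1.28-fold and 1.33-fold.

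Nanog (chr6:122707489-122714633), a homeodomain protein whose forced expression lets mouse ES cells self-renew without LIF, had larger ratios to WT than its core partners. It was at 12.21, 12.32 and 12.24 in Dgcr8 KO cells, 12.57, 12.61 and 12.58 in Dicer KO cells and 11.47, 11.51 and 11.49 in WT cells, 3 separate ranges. The log2 ratio was 0.77 (SE 0.05, adjusted p = 1.82e-06, 1.70-fold) in Dgcr8 KO cells and 1.10 (SE 0.05, adjusted p = 1.36e-07, 2.14-fold) in Dicer KO cells. RefSeq lists 2 Nanog pseudogenes, and the array annotation names 0 of them.

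Prdm14 (chr1:13113428-13127163), a PR-domain protein that in mouse ES cells holds down FGF receptor signalling and the DNA methyltransferase Dnmt3b, was among the factors that changed most. It was at 8.85, 8.88 and 8.85 in Dgcr8 KO cells, 9.18, 9.21 and 9.17 in Dicer KO cells and 7.19, 7.24 and 7.36 in WT cells. The WT arrays were at least 1.49 log2 units below every mutant array, and the ranges of the mutants were apart as well. These levels made Prdm14 3.03-fold higher in Dgcr8 KO cells (95% interval of the log2 ratio 1.48 to 1.72) and 3.80-fold higher in Dicer KO cells (1.81 to 2.04), with adjusted p of 6.34e-08 and 1.68e-08.

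The Krüppel-like factors Klf2, Klf4 and Klf5 bind the same GC-rich letters and can stand in for each other in ES cells, and they followed 3 different patterns. Klf2 (chr8:72319062-72321654) was at 10.51, 10.47 and 10.55 in Dgcr8 KO cells, 10.53, 10.44 and 10.49 in Dicer KO cells and 8.98, 9.09 and 8.95 in WT cells. Its mutant arrays overlapped each other and lay far above WT. Klf2 was 2.84-fold higher in Dgcr8 KO cells (log2 ratio 1.51, SE 0.05, adjusted p = 9.56e-08) and 2.79-fold higher in Dicer KO cells (1.48, SE 0.05, adjusted p = 6.00e-08).

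Klf4 (chr4:55527137-55532475), the member of the family that LIF and Stat3 induce, was at 9.234, 9.211 and 9.223 in Dgcr8 KO cells, 9.607, 9.629 and 9.656 in Dicer KO cells and 8.998, 9.075 and 9.013 in WT cells. The 3 ranges were apart, with Dgcr8 KO cells nearer to WT than to Dicer KO cells. The log2 ratio was 0.19 (SE 0.04, adjusted p = 0.00651) in Dgcr8 KO cells, a call that SAM with its constant of 0.74 did not make (q = 0.213), and 0.60 (SE 0.04, adjusted p = 4.39e-06) in Dicer KO cells. Klf5 (chr14:99298691-99313412), needed for the early blastocyst and for ES cell self-renewal, was at 10.39, 10.42 and 10.29 in Dgcr8 KO cells, 10.81, 10.85 and 10.78 in Dicer KO cells and 10.36, 10.43 and 10.34 in WT cells. Dgcr8 KO and WT cells overlapped, and Dicer KO cells lay above both. The log2 ratio of Klf5 was -0.01 in Dgcr8 KO cells (95% interval -0.13 to 0.10, adjusted p = 0.880) and 0.43 in Dicer KO cells (SE 0.05, adjusted p = 0.000134).

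Tbx3 (chr5:119670534-119684724), a T-box repressor that keeps ES cells undifferentiated, was at 9.30, 9.30 and 9.23 in Dgcr8 KO cells, 9.94, 9.85 and 9.86 in Dicer KO cells and 7.76, 7.91 and 8.01 in WT cells. The ranges were apart in the order Dicer KO, Dgcr8 KO, WT, and the WT arrays differed among themselves more than for any other factor (SD 0.13). Tbx3 was 2.61-fold higher in Dgcr8 KO cells (log2 ratio 1.38, SE 0.07, adjusted p = 5.97e-07) and 3.96-fold higher in Dicer KO cells (1.99, SE 0.07, adjusted p = 4.53e-08).

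Esrrb and Tfcp2l1 are targets of the Wnt and LIF signals, and their order between the mutants was opposite. Esrrb (chr12:86361117-86521628), an orphan nuclear receptor, was at 11.02, 10.99 and 11.05 in Dgcr8 KO cells, 10.65, 10.65 and 10.61 in Dicer KO cells and 10.43, 10.50 and 10.49 in WT cells. Dgcr8 KO cells were the higher of the mutants, and Dicer KO cells were just above WT without overlap. The log2 ratio was 0.55 (SE 0.04, adjusted p = 1.13e-05, 1.46-fold) in Dgcr8 KO cells and 0.16 (SE 0.04, adjusted p = 0.0153, 1.12-fold) in Dicer KO cells. The call in Dicer KO cells was lost without Dicer KO replicate 1 (adjusted p = 0.0536) or Dicer KO replicate 2 (0.0521). SAM, which in this comparison added a constant of 0.47 to the SE, did not make it (q = 0.254). Dicer KO replicates 1 and 2 hold the same value of Esrrb in every deposited digit.

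Tfcp2l1 (chr1:118627923-118685168), a CP2-family protein, was at 10.41, 10.43 and 10.36 in Dgcr8 KO cells, 11.13, 11.14 and 11.13 in Dicer KO cells and 9.56, 9.77 and 9.71 in WT cells. Dicer KO cells were on top and the 3 ranges were apart. Its log2 ratio was 0.72 (SE 0.06, adjusted p = 1.24e-05) in Dgcr8 KO cells, which is 1.65-fold, and 1.45 (SE 0.06, adjusted p = 1.15e-07) in Dicer KO cells, which is 2.74-fold.

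**Figure D2:**
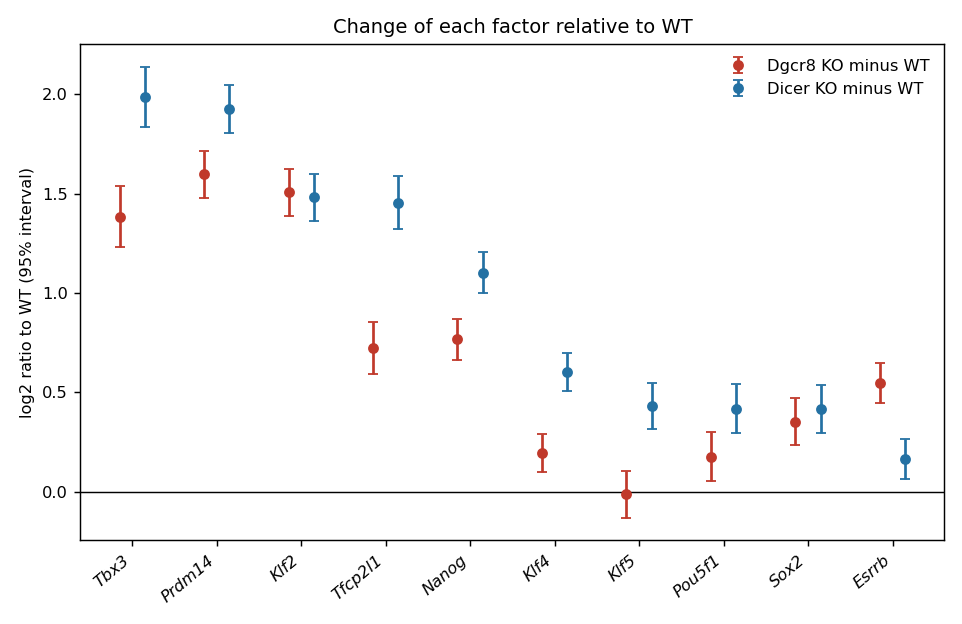
The log2 ratio of each factor to WT in Dgcr8 KO cells (left point of each pair) and Dicer KO cells (right point), with 95% intervals from the limma fit. The ratios run up to 3.03-fold (Prdm14) in Dgcr8 KO cells and 3.96-fold (Tbx3) in Dicer KO cells, and the interval of Klf5 in Dgcr8 KO cells holds 0.

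The mutants were then compared with each other, which asks whether loss of Dgcr8 and loss of Dicer left the factors at the same level. Of the 10 factors, Dgcr8 KO cells had less than Dicer KO cells of 7 (13.4% of all transcripts) and more of 1 (11.2%), and 2 were not called. The same 8 had arrays that did not overlap between the mutants, 7 lower (21.0% of all transcripts) and 1 higher (21.0%). The median difference of the 10 was -0.33, against 0.03 over all transcripts. Tfcp2l1 differed by -0.73 (SE 0.06, adjusted p = 2.71e-05) and Tbx3 by -0.60 (SE 0.07, adjusted p = 0.000193), so that Dgcr8 KO cells had 1.66-fold and 1.52-fold less. Among the Krüppel-like factors, Klf5 differed by -0.44 (adjusted p = 0.000252) and Klf4 by -0.41 (adjusted p = 0.000140). Nanog and Prdm14 each differed by -0.33 (adjusted p = 0.000685 and 0.00174) and Pou5f1 by -0.24 (adjusted p = 0.0105). Esrrb alone of the 10 was higher in Dgcr8 KO cells, by 0.38 (SE 0.04, adjusted p = 0.000226).

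No difference between the mutants was called for Sox2 or Klf2, both of which were above WT in each mutant. The difference for Sox2 was -0.06 with a 95% interval of -0.18 to 0.06 (adjusted p = 0.421), and that for Klf2 was 0.03 with an interval of -0.09 to 0.15 (adjusted p = 0.763). By the calls in all 3 comparisons, which share arrays, 6 factors (Pou5f1, Nanog, Prdm14, Klf4, Tbx3 and Tfcp2l1) were highest in Dicer KO cells, next in Dgcr8 KO cells and lowest in WT cells, an order that 3.67% of all transcripts had. Esrrb had Dgcr8 KO cells first, Dicer KO cells next and WT cells last (1.79%), Sox2 and Klf2 were above WT in both mutants with no call between them (6.04%), and Klf5 was higher in Dicer KO cells alone (3.73%).

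**Figure D3:**
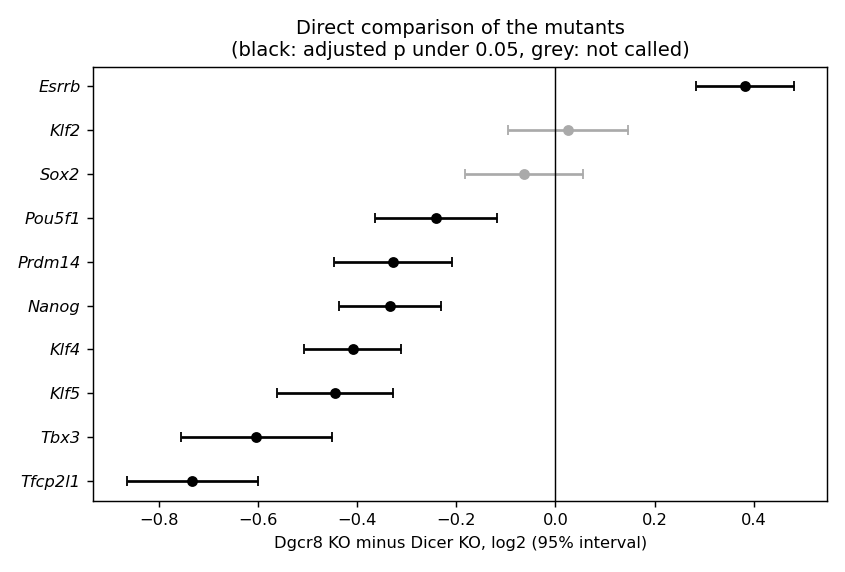
The difference of each factor between the mutants, Dgcr8 KO minus Dicer KO on the log2 scale, with 95% intervals and sorted by size. Esrrb lies to the right of 0, the intervals of Klf2 and Sox2 hold 0, and the other 7 lie to the left, down to -0.73 for Tfcp2l1.

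Among replicate arrays the factors varied little. Their SD ran from 0.01 (Klf4) to 0.08 (Sox2) in Dgcr8 KO cells, from 0.002 (Tfcp2l1) to 0.05 (Tbx3) in Dicer KO cells and from 0.02 (Nanog) to 0.13 (Tbx3) in WT cells. Some values were repeated: Prdm14 and Tbx3 had the same value to every deposited digit on 2 Dgcr8 KO arrays, as did Esrrb on 2 Dicer KO arrays. Such ties on 2 arrays were present for 11.5% of all transcripts in Dgcr8 KO cells, 12.1% in Dicer KO cells and 9.49% in WT cells. The part of these ties in the calls was not tested.

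Profiles over the 9 arrays were also set against each other, each centred on its own WT mean, by the root mean square (RMS) of their differences on the log2 scale. Among the factors, Pou5f1 and Klf4 were closest (RMS 0.114), then Pou5f1 and Sox2 (0.117) and Pou5f1 and Klf5 (0.120), all with small ratios. Prdm14 and Tbx3, with large ones, were at 0.135, and Prdm14 and Klf5 were farthest apart (1.27). Among 19955 other clusters that carry 1 gene symbol, the nearest to Tfcp2l1 were S100a11 (0.0335) and Cd99l2 (0.0427), to Nanog Cast (0.0377) and Mbnl2 (0.0411), and to Prdm14 Cfp (0.0580) and Atp9a (0.0735). Klf2 was nearest to Mov10 (0.0551) and Aff1 (0.0753), Tbx3 to Erbb3 (0.0834) and Fxyd6 (0.102), and Esrrb to Prdm2 (0.0440) and Golm1 (0.0463). Nearest to Pou5f1 were Wfs1 (0.0380) and Zfp407 (0.0389), to Sox2 Prkaa1 (0.0334) and Gsr (0.0343), to Klf4 Sqstm1 (0.0265) and Arpc1b (0.0318), and to Klf5 Erg28 (0.0383) and Slc31a2 (0.0419). The distances describe these arrays, and with 3 genotypes many transcripts share a pattern.

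The genes around the factors were described through lists of their signals, targets and relatives, with the counts read against the shares of all transcripts given above. The parts of the LIF receptor pathway moved in both directions. Of 17 clusters for 16 genes of LIF and Stat3 signalling, 6 rose and 6 fell in Dgcr8 KO cells (median log2 ratio 0.03), and 8 rose and 5 fell in Dicer KO cells (median 0.18). The receptor chain Il6st (gp130) was at 10.44, 10.51 and 10.39 in Dgcr8 KO cells, 10.51, 10.58 and 10.49 in Dicer KO cells and 9.40, 9.57 and 9.56 in WT cells, and rose by 0.94 and 1.02 on the log2 scale (adjusted p = 3.16e-06 and 1.30e-06). Of the kinases that this receptor activates, Jak1 rose by 0.99 in Dgcr8 KO cells and 1.18 in Dicer KO cells (adjusted p = 4.49e-06 and 1.02e-06) and Jak2 by 1.58 in each (adjusted p = 6.83e-06 and 5.37e-06). Tyk2 differed from WT by 0.03 in Dgcr8 KO cells (adjusted p = 0.792) and by 0.18 in Dicer KO cells (adjusted p = 0.0480). The targets of Stat3 moved both ways: besides the rises of Klf4 and Tfcp2l1, 1 of the 2 clusters of Socs3, an inhibitor of the pathway, rose by 0.22 and 0.20 (adjusted p = 0.0199 and 0.0260) and the other was called in neither mutant (0.04 and 0.18, adjusted p = 0.821 and 0.242). Tyk2 and Socs3 are named after their values were seen. Pim1, a kinase (-0.72 and -1.32, adjusted p = 7.12e-06 and 1.15e-07), and Gbx2, a homeobox factor (-1.01 and -1.11, adjusted p = 1.32e-05 and 5.66e-06), fell in both mutants. Between the mutants 2 of the 17 clusters were higher and 2 lower in Dgcr8 KO cells. Stat3 itself differed by -0.37 (adjusted p = 0.00177), lower in Dgcr8 KO cells like Klf4 and Tfcp2l1. Pim1 went the other way, higher there by 0.61 (adjusted p = 4.68e-05), as did the receptor Lifr, by 0.27 (adjusted p = 0.00726).

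Genes of FGF and ERK signalling, the pathway that opposes the naive state, were more often lower than higher in both mutants. Of 20 clusters for 18 genes, 3 rose and 11 fell in Dgcr8 KO cells (median -0.25), and 4 rose (2 after repeated quantile normalization) and 13 fell in Dicer KO cells (median -0.27). The ERK phosphatase Dusp6 was at 8.69, 8.96 and 8.90 in Dgcr8 KO cells, 9.18, 9.15 and 9.18 in Dicer KO cells and 10.03, 10.12 and 10.08 in WT cells, with WT above both mutants. It fell by 1.23 on the log2 scale in Dgcr8 KO cells (adjusted p = 1.29e-06). Dusp4, of the same family, fell by 1.71 in Dgcr8 KO cells and by 2.20 in Dicer KO cells (adjusted p = 1.13e-06 and 1.55e-07). The ETS factor Etv4, an ERK target, fell by 1.33 in Dgcr8 KO cells (adjusted p = 1.90e-06). Its mean in Dicer KO cells, 8.77, was nearer to that in WT cells, 9.01, and Dgcr8 KO minus Dicer KO was -1.10 (adjusted p = 1.52e-05). Egr1 of the same list rose by 0.33 in Dgcr8 KO cells (adjusted p = 0.00118). The feedback inhibitor Spry2 was 2.83-fold and the receptor Fgfr2 2.36-fold lower in Dicer KO cells (adjusted p = 7.87e-08 and 3.00e-07). Both also lay below WT without overlap in Dgcr8 KO cells. There the mean of Spry2 was 9.54 against 10.40 in WT cells, and that of Fgfr2 7.38 against 7.98. The ligand Fgf4, itself a target of Pou5f1 and Sox2, rose by 0.55 in Dgcr8 KO cells and 0.50 in Dicer KO cells (adjusted p = 3.27e-05 and 5.14e-05). More of these clusters fell than rose after median centring, repeated quantile normalization and cyclic loess too, in each mutant.

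The Wnt list held 14 clusters, of which 3 rose and 3 fell in Dgcr8 KO cells (median -0.01), or 5 and 3 after repeated quantile normalization and after cyclic loess, and 2 rose and 3 fell in Dicer KO cells (median -0.05). Tcf7l1, the repressor of Esrrb, Klf2 and Tfcp2l1, was called in neither mutant against WT. It was higher in Dgcr8 KO than in Dicer KO cells, by 0.28 (adjusted p = 0.00730). In that comparison Tfcp2l1 was lower in Dgcr8 KO cells, Esrrb was higher there and Klf2 was not called. A link between these levels was not tested. The related Tcf7l2 rose by 0.83 in Dgcr8 KO cells and 0.88 in Dicer KO cells (adjusted p = 2.34e-05 and 1.31e-05), and the kinase Gsk3b, which marks β-catenin for destruction, rose by 0.47 and 0.74 (adjusted p = 0.00112 and 5.05e-05). Lef1, an activating partner of β-catenin, fell by 1.12 in Dgcr8 KO cells and by 1.91 in Dicer KO cells (adjusted p = 0.000459 and 1.16e-05), and Axin2, a Wnt target, fell by 0.43 and 0.61 (adjusted p = 0.0216 and 0.00308). The 3 Dgcr8 KO arrays hold the same value of Lef1 (7.05), a tie that 1.66% of all transcripts had in these cells, while its SD in Dicer KO cells was 0.38.

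Genes that mark the primed epiblast, the state after the naive one, split in Dgcr8 KO cells and were mostly lower in Dicer KO cells. Of 18 clusters, 6 rose and 7 fell in Dgcr8 KO cells (median -0.08), and 3 rose and 11 fell in Dicer KO cells (median -0.48), and in the direct comparison 9 were higher and 2 lower in Dgcr8 KO cells. The counts of lower clusters were 11 in Dicer KO cells after each of the 3 rescalings. The methyltransferase Dnmt3b was at 9.89, 9.88 and 9.71 in Dgcr8 KO cells, 9.78, 9.82 and 9.74 in Dicer KO cells and 11.06, 11.20 and 11.16 in WT cells. Both mutants were below WT without overlap, and Dnmt3b fell by 1.32 in Dgcr8 KO cells and by 1.36 in Dicer KO cells (adjusted p = 5.52e-07 and 2.73e-07). Its relative Dnmt3a fell by 1.71 and 2.08 (adjusted p = 1.22e-08 and 3.68e-09). Other genes of the list rose in both mutants: Epha4 by 0.83 and 1.01 (adjusted p = 3.55e-06 and 7.56e-07) and Zic2 by 1.03 and 0.34 (adjusted p = 4.51e-06 and 0.00430). In Dicer KO cells Cdh2 rose by 0.64 (adjusted p = 0.000734). Otx2, a homeobox factor of the primed state, rose by 1.23 in Dgcr8 KO cells (adjusted p = 4.12e-06) and was higher there than in Dicer KO cells by 1.82 (adjusted p = 9.66e-07).

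Other ES cell genes moved in both directions. Of 31 clusters for 26 naive and general ES cell genes, 11 rose and 6 fell in Dgcr8 KO cells (median 0.05), and 9 rose and 11 fell in Dicer KO cells (median -0.004). After repeated quantile normalization and after cyclic loess 16 rose and 6 fell in Dgcr8 KO cells, and after cyclic loess 12 rose and 11 fell in Dicer KO cells (median 0.03). The alkaline phosphatase Alpl, a classical ES cell stain, was at 10.61, 10.66 and 10.57 in Dgcr8 KO cells, 10.35, 10.36 and 10.35 in Dicer KO cells and 9.10, 9.16 and 9.18 in WT cells, and rose by 1.47 and 1.21 on the log2 scale (adjusted p = 4.40e-08 and 7.34e-08). The growth factor Gdf3 rose by 0.93 in Dgcr8 KO cells (adjusted p = 9.53e-07). Tcl1, a cofactor of the kinase Akt, rose by 0.81 in Dicer KO cells (adjusted p = 1.70e-06). Each also lay above WT without overlap in the other mutant. Mean Gdf3 was 11.40 in Dicer KO cells and 10.89 in WT cells, and mean Tcl1 8.86 in Dgcr8 KO cells and 8.35 in WT cells. Lin28a, an RNA-binding protein that blocks let-7 maturation, was at 7.80, 7.76 and 7.86 in Dgcr8 KO cells, 7.50, 7.11 and 7.43 in Dicer KO cells and 10.69, 10.77 and 10.88 in WT cells. It had the largest fall of the list in each mutant, with log2 ratios of -2.97 and -3.43 (adjusted p = 5.87e-08 and 1.78e-08). Both clusters of Dppa3, a maternal-effect protein that marks naive cells and germ cells, fell as well, with log2 ratios of -2.17 and -1.50 in Dgcr8 KO cells (adjusted p = 5.52e-07 and 4.31e-05) and -2.97 and -2.11 in Dicer KO cells (adjusted p = 5.43e-08 and 3.77e-06). Dnmt3l, a cofactor of Dnmt3a and Dnmt3b, fell by 0.85 in Dgcr8 KO cells and by 1.47 in Dicer KO cells (adjusted p = 1.73e-06 and 4.86e-08). In the comparison of the mutants, 15 of these clusters were called for more and 4 for less RNA in Dgcr8 KO cells.

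Relatives of the factors in their own gene families were counted as well. Among 14 other Krüppel-like factors, 4 rose and 2 fell in Dgcr8 KO cells and 5 rose (3 after repeated quantile normalization) and 2 fell in Dicer KO cells. Klf8, a repressor of the family, rose by 0.73 in Dgcr8 KO cells and 1.42 in Dicer KO cells (adjusted p = 0.000235 and 2.54e-06), and Klf12, also a repressor, fell by 1.21 and 1.68 (adjusted p = 2.34e-05 and 2.18e-06). Of 14 clusters for 12 other Prdm genes, 6 rose and 0 fell in Dgcr8 KO cells, or 3 and 0 after median centring of the arrays, and 3 rose and 1 fell in Dicer KO cells. Prdm1, which with Prdm14 specifies germ cells in the mouse embryo, rose by 0.98 and 1.13 (adjusted p = 1.01e-05 and 3.11e-06). Of 18 other Sox genes, 3 rose (5 without WT replicate 1 and Dgcr8 KO replicate 2) and 4 fell in Dgcr8 KO cells. In Dicer KO cells 1 rose and 5 fell. Sox4 fell by 0.51 in Dgcr8 KO cells and by 1.82 in Dicer KO cells (adjusted p = 0.00321 and 7.74e-07). The Tbx relatives had 3 of 14 clusters higher and 0 lower in Dgcr8 KO cells and 1 higher and 1 lower in Dicer KO cells. In Dgcr8 KO cells 2 were higher and 1 lower after median centring, and 3 and 1 after repeated quantile normalization and after cyclic loess. In Dicer KO cells the last 2 rescalings gave 1 higher and 0 lower. Tbx20, a cardiac T-box factor, was up by 0.82 and 1.31 (adjusted p = 1.41e-06 and 5.77e-08). Pou relatives had 2 of 11 clusters higher and 1 lower in Dgcr8 KO cells, and 1 higher and 2 lower in Dicer KO cells. Of the 7 relatives of Esrrb and Tfcp2l1, 1 rose and 3 fell in Dgcr8 KO cells and 2 rose and 1 fell in Dicer KO cells, with Tfcp2 up by 0.85 and 0.42 (adjusted p = 6.90e-05 and 0.00480).

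**Figure D4:**
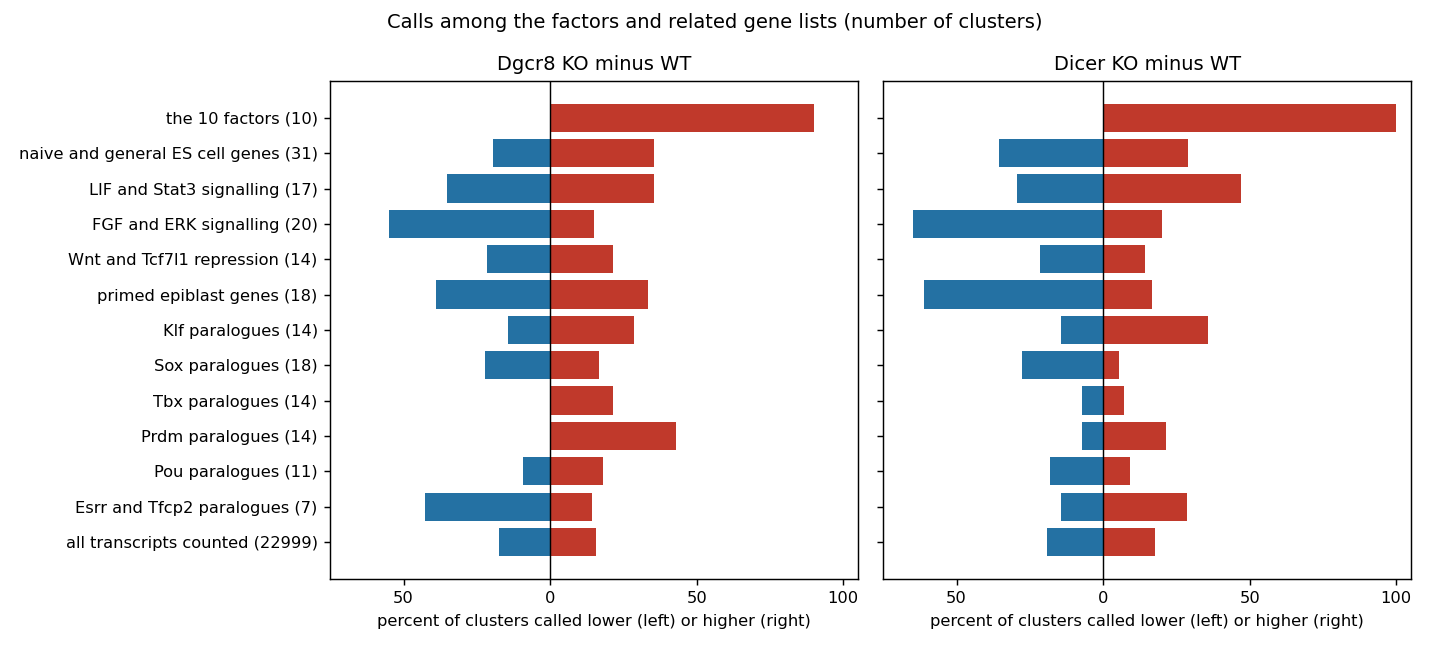
The percent of clusters called higher (bars to the right) or lower (bars to the left) than WT in Dgcr8 KO cells (left panel) and Dicer KO cells (right panel), for the 10 factors, the related lists and all transcripts counted, with the number of clusters in brackets. The bars of the 10 factors run to the right alone, and those of FGF and ERK signalling are longer to the left in both panels.

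Markers of other cells were checked beside these results. The mean log2 level of 8 feeder fibroblast markers was 5.61 to 5.84 on the Dgcr8 KO arrays, 5.66 to 5.78 on the Dicer KO arrays and 5.70 to 5.95 on the WT arrays, with 0 of 8 called in Dgcr8 KO cells and 1 of 8 in Dicer KO cells (Dcn, lower by 0.26, adjusted p = 0.0376). Primitive endoderm markers averaged 5.66 to 5.83, 5.58 to 5.66 and 5.81 to 5.95 in the same order of genotypes, trophoblast markers 6.67 to 6.79, 6.95 to 7.03 and 6.92 to 6.96, and neural markers 6.97 to 7.05, 6.86 to 6.90 and 6.84 to 6.92. Single markers moved within these means. Of 9 primitive endoderm clusters, 1 rose and 1 fell in Dgcr8 KO cells and 0 rose and 2 fell in Dicer KO cells, with 1 of the 2 clusters of the adaptor Dab2 down by 1.13 and 1.15 (adjusted p = 1.97e-06 and 1.28e-06) and the GATA factor Gata4 up by 0.35 in Dgcr8 KO cells (adjusted p = 0.00536). Of 8 trophoblast markers, 0 rose and 3 fell in Dgcr8 KO cells, among them the keratin Krt7 by 0.92 (adjusted p = 2.79e-05), and 2 rose and 1 fell in Dicer KO cells, among them the ETS factor Elf5, up by 0.41 (adjusted p = 0.000877). Of 7 neural markers, 1 rose and 1 fell in each mutant: Pax6, a homeobox factor of neural progenitors, rose by 0.93 and 0.43 (adjusted p = 3.87e-06 and 0.000471), and Nes, an intermediate filament protein, fell by 0.36 and 0.35 (adjusted p = 0.0313 and 0.0300). The ES cell markers averaged 10.99 to 11.07 on the Dgcr8 KO arrays, 10.93 to 10.94 on the Dicer KO arrays and 10.74 to 10.81 on the WT arrays, and of their 9 clusters 4 rose and 1 fell in Dgcr8 KO cells (median log2 ratio 0.13), and 3 rose and 2 fell in Dicer KO cells (median -0.01). Alpl rose as given above, and Utf1, a chromatin protein of ES cells, fell by 0.45 and 0.51 (adjusted p = 8.24e-05 and 3.17e-05). Between the mutants 4 of the 9 were higher and 1 lower in Dgcr8 KO cells, where 1 of the 10 factors was higher and 7 were lower. The part of any of these markers in the results of the factors was not tested. The level of a marker is on the scale of its own probes and gives no share of cells.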

How the data were processed

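RNA of 9 mouse ES cell cultures, 3 each of Dgcr8 KO, Dicer KO and WT, was measured on 1-colour Affymetrix arrays. The authors normalised and summarised the probes before they deposited the log2 values used here: RMA according to the paper, GCRMA according to the processing notes, with no version in either. The values were used as deposited. Genotypes were read from the labels. Normalised values hold no signal over background, and precision rests on the 3 arrays per genotype. The small RNA reads of the study were not used here.

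Of 35557 clusters, 12147 carry no symbol in the platform annotation, 1621 carry several, and 21766 of 21789 with 1 symbol matched RefSeq (GRCm38.p6). After 326 clusters of miRNA genes alone, 7 mitochondrial and 78 Y-linked ones were left out, 22999 were counted. In R 4.3.3 with limma 3.58.1, group means were estimated from the 9 arrays together, and 3 contrasts were tested with eBayes (6 residual degrees of freedom before moderation) and Benjamini-Hochberg adjustment over the 22999. A call is an adjusted p under 0.05, and intervals are at 95%. Calls were also made by SAM, rewritten from its description with 20 label permutations. The code was tested on simulated data in which 200 transcripts differed.

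Named were the 10 factors, for each the 2 nearest profiles among other genes with 1 symbol, the deleted genes, and in each list up to 3 called genes per direction and contrast with the smallest adjusted p. Not every list gene so named is printed. The factors, lists and motifs were chosen with earlier results of these data known. In all, 13 kinds of alternative were planned and 1 was added after the data were seen: SAM, the arrays and transcripts in the fit, a filter on dim transcripts, 3 normalizations, the variance model, array weights, a replicate block, a fold minimum, a stricter threshold and leaving out each array, and, added, dropping both WT replicate 1 and Dgcr8 KO replicate 2.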

Additional observations from a re-analysis of the deposited data

Results flagged for a closer look

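For 8 of the 10 factors the effects of the 2 deletions, each relative to WT, differed by the limma test of their difference. The WT level cancels in that difference, so these are the calls between the mutants given above and not a further result. Of all transcripts, the same test called 13.4% for less RNA in Dgcr8 KO cells and 11.2% for more. The effect in Dgcr8 KO cells minus that in Dicer KO cells, on the log2 scale, was -0.73 for Tfcp2l1, -0.60 for Tbx3, -0.44 for Klf5, -0.41 for Klf4, -0.33 for Nanog, -0.33 for Prdm14 and -0.24 for Pou5f1. For Esrrb it was 0.38, the opposite direction. Among the 8, Klf5 was called against WT in Dicer KO cells and not in Dgcr8 KO cells, and the others were called in both. Each mutant is a line of its own, so the deletion and the line cannot be told apart in these differences. Groups of 3 arrays were not tested for single arrays that stand apart.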

How the results depend on the processing

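The 30 log2 ratios of the factors (10 factors in 3 comparisons) were recomputed under 22 alternative settings, 660 values in all, of which 621 kept their direction and their side of the threshold, 33 kept the direction and lost the call, and 6 changed sign. Each change of sign was in a ratio that was not called. The ratio of Klf5 in Dgcr8 KO cells to WT was 0.0416 after repeated quantile normalization and 0.0503 after cyclic loess, and -0.0404 to 0.0225 with 1 array left out, where it turned positive without WT replicate 2 (0.0127) and without Dgcr8 KO replicate 3 (0.0225). The difference between the mutants was 0.00692 for Sox2 after repeated quantile normalization and -0.0191 for Klf2 after median centring. A minimum of 1.5-fold left 5 factors called in Dgcr8 KO cells, 6 in Dicer KO cells and 2 between the mutants, with 9.06%, 10.9% and 4.95% of all transcripts called. At an adjusted p under 0.01, 14.8% of all transcripts differed between the mutants. SAM called 7, 9 and 8 factors and 22.1%, 31.6% and 36.9% of all transcripts. Leaving out 1 array at a time gave 8 to 9 factors in Dgcr8 KO cells, 9 to 10 in Dicer KO cells and 8 to 8 between the mutants, and 28.6% to 34.3%, 31.2% to 36.7% and 18.2% to 28.5% of all transcripts. Without WT replicate 1 and Dgcr8 KO replicate 2 together, a choice made after the data were seen, 8, 10 and 8 factors and 36.3%, 37.0% and 32.8% of all transcripts were called.

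For replicates of the same number in different genotypes, r of their deviations was -0.20 to 0.34, against -0.46 to 0.32 for different numbers. All pairs of replicate 2 were positive (WT with Dgcr8 KO 0.34, WT with Dicer KO 0.13, Dgcr8 KO with Dicer KO 0.17). Same-number pairs of the other replicates had both signs. Overlapping ranges from so few arrays cannot decide whether replicates of the same number were handled together, which was not tested. With the replicate block, 8, 10 and 8 factors and 32.8%, 37.1% and 24.6% of all transcripts were called, against 33.0%, 36.8% and 24.6% without it. Besides the losses given with Pou5f1, its ratio in Dgcr8 KO cells missed the threshold with the block (adjusted p = 0.0611), with the 2 genotypes alone in the fit (0.0798), over every cluster of the array (0.0521) and after median centring (0.121). Of the transcripts called between the mutants, 45.5% were higher in Dgcr8 KO cells, or 34.4% after median centring. The cause of these losses was not tested.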
